A study of Mus musculus with 3 samples.

Results

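The Ikaros zinc finger family is a set of 5 mouse genes, Ikzf1 to Ikzf5, described here in activated regulatory T cells. The 5 genes were taken as a given list, matched by the gene symbols that the deposited transcript tables pair with Ensembl identifiers, and all 5 were found among the 55536 mouse genes of the main gene table. They have 34 annotated transcripts among the 141767 mouse transcripts of the second transcript table.

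PolyA-selected RNA was sequenced from primary activated regulatory T cells of a male mouse aged 4 months. The strain was Foxp3CreERT2 x Rosa26YFP, which carries a tamoxifen-inducible Cre recombinase at Foxp3, a gene active in regulatory T cells, and a YFP reporter at the Rosa26 locus. The labels trace the cells to hematopoietic cells of the bone marrow, and neither the sort that defined them nor any tamoxifen treatment is stated in the sources used here. The RNA fragments were sheared and spanned 100 to 300 bp. The 3 libraries, replicates 1, 2 and 3, are called technical replicates of 1 biological replicate, so every SD and p-value below measures only the spread between these libraries. There was 1 group and no control, so levels and their spread are reported and no condition was compared with another.

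The libraries held 10981924, 9700630 and 6667391 expected counts in genes (replicates 1, 2 and 3), and the family took 0.213%, 0.222% and 0.185% of them. All 8 T cell and regulatory T cell markers listed were detected at 1 or more TPM, a transcript abundance scaled for length and depth, in every library. Their summed level was 4610, 4609 and 3334 TPM, with Foxp3 at 29.5, 28.7 and 49.8 TPM and Ctla4, an inhibitory receptor, at 190, 250 and 612 TPM, both highest in replicate 3. The 9 B cell markers summed to 1801, 1489 and 3120 TPM, of which Igkc, the immunoglobulin kappa constant gene, gave 745.9, 282.2 and 2215 TPM, while Pax5, a B cell transcription factor, stayed between 0.76 and 1.75 TPM. Without Igkc the other 8 B cell markers summed to 1055, 1207 and 904.8 TPM, lowest in replicate 3. Most of that sum was Ighm, the immunoglobulin mu constant gene, at 942.8, 1128 and 811.5 TPM. Of the 8 markers, 3 were lowest in replicate 3. The 6 erythroid markers summed to 793.5, 2.97 and 21.2 TPM, with Klf1, an erythroid transcription factor, between 0 and 0.83 TPM. The 6 plasma cell markers summed to 127, 87.4 and 187 TPM, with Sdc1 between 0.25 and 1.38 TPM. Jchain, at 43.4, 4.7 and 69.6 TPM, and Mzb1, at 9.4, 4.65 and 30.0 TPM, were both highest in replicate 3. These 2, Ctla4 and Igkc also varied between libraries under the trended dispersion described below. Summed levels of the CD8 T cell, NK cell, myeloid and dendritic cell markers lay between 2.08 and 23.0 TPM. No listed marker was at 0 in all 3 libraries, and the part of other cells in the family's levels was not tested.

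Ikaros family proteins are transcription factors with an amino-terminal block of zinc fingers that binds DNA and a carboxy-terminal finger pair through which members bind themselves and each other. They recruit chromatin remodelling and corepressor complexes, and forms that lack the DNA-binding fingers can still pair with full-length partners. In T cells, Ikaros (Ikzf1) shapes development and restrains activation, while Helios (Ikzf2) and Eos (Ikzf4) are known for their high expression in regulatory T cells, where Eos is a partner of Foxp3. Aiolos (Ikzf3) is best known from B cells and also acts in helper T cells, and Pegasus (Ikzf5) is the most distant relative.

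The coding sequences show this kinship. The leading transcripts of Ikzf1, Ikzf2, Ikzf3 and Ikzf4 encode 515, 526, 507 and 586 residues, and a search for a C2H2-type finger pattern found 6 fingers in each. The pattern searched was a pair of cysteines with 2 residues between them, 12 further residues and a histidine. After 3 to 5 more residues it ended in a histidine or a cysteine. In all 4 genes the fingers lay in the same order along the coding exons, with 1, 2 and 1 fingers in 3 neighbouring exons and 2 in the last coding exon. The encoded proteins of these 4 were identical at 50.5% to 57.0% of aligned residues. Pegasus, with 419 residues and 5 fingers, matched the others at 28% to 32.0%.

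The sequences that matter most for the results are the splice junctions at which transcripts keep or lose the fingers. Each line below gives the last 15 bases of a shared coding exon in capitals, then the next 15 bases of the transcript in lower case, from the GENCODE M21 transcripts on mm10. For Ikzf2, the shared bases are chr1:69683210-69683224 (minus strand). In Ikzf2-201 they join the exon with the first finger at chr1:69578033-69578047, whereas Ikzf2-205 reads on into the intron at chr1:69683195-69683209.
Ikzf2-201: GTCACATGACAAGCAcaaattctgtaaagc
Ikzf2-205: GTCACATGACAAGCAgtaagtcttcatttt
For Ikzf3, the shared bases are chr11:98516851-98516865 (minus strand), followed in Ikzf3-201 by chr11:98490575-98490589 and in Ikzf3-203 by the intron at chr11:98516836-98516850.
Ikzf3-201: ACGAAGATGCAGGAGaagattcgatgaaag
Ikzf3-203: ACGAAGATGCAGGAGgtaagccacgctcca
For Ikzf1, the shared bases are chr11:11707890-11707904 (plus strand), followed in Ikzf1-204 by the exon with the first finger at chr11:11748311-11748325 and in Ikzf1-202 by the next exon at chr11:11754007-11754021.
Ikzf1-204: GTGATCGAGGCATGGccagtaatgttaaag
Ikzf1-202: GTGATCGAGGCATGGgtgaacggcctttcc
In both read-through transcripts the lower-case bases open with gta, the start of an unspliced intron, while Ikzf1-202 is spliced and skips 1 exon.

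At the level of whole genes, Helios led the family. Ikzf2 (ENSMUSG00000025997.13, chr1:69531214-69687245, minus strand) stood at 358, 441 and 268 TPM in replicates 1, 2 and 3, a mean of 356 ± 86.5 TPM (SD, n = 3). It took 56.0%, 55.8% and 45.1% of the family's summed TPM and ranked 340 among protein-coding genes. Replicate 2 was highest and replicate 3 lowest, and even the lowest Ikzf2 value lay above every value of the other 4 genes.

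Ikaros came next. Ikzf1 (ENSMUSG00000018654.17, chr11:11685003-11772926, plus strand) stood at 105, 119 and 118 TPM, a mean of 113.9 ± 8.0 TPM (SD, n = 3). Aiolos, Ikzf3 (ENSMUSG00000018168.8, chr11:98464902-98546031, minus strand), stood at 75.2, 107.7 and 113 TPM, a mean of 98.7 ± 20.6 TPM (SD, n = 3). Replicate 1 was the lowest for both genes, and their ranges overlapped. They did not overlap on coding transcripts, where Ikzf1 exceeded Ikzf3 by 2.16-, 1.65- and 1.69-fold.

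Eos and Pegasus closed the order. Ikzf4 (ENSMUSG00000002578.17, chr10:128630843-128645991, minus strand) stood at 84.2, 101 and 78.6 TPM, a mean of 87.9 ± 11.7 TPM (SD, n = 3). Its range overlapped that of Ikzf3 and lay below that of Ikzf1. Ikzf5 (ENSMUSG00000040167.16, chr7:131388652-131410521, minus strand) stood at 18.2, 20.8 and 17.1 TPM, a mean of 18.7 ± 1.91 TPM (SD, n = 3), below every value of the other members.

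**Figure D1:**
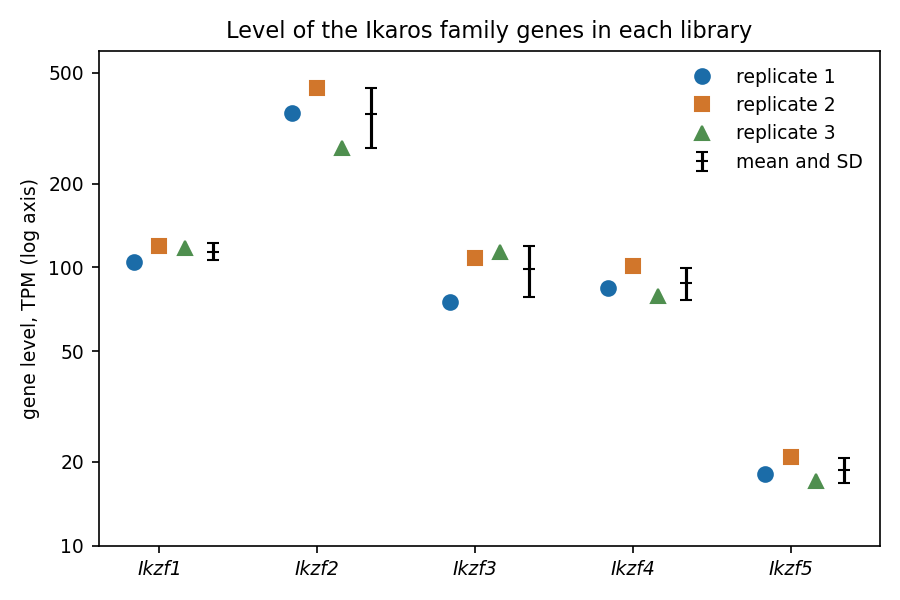
Gene level in TPM (log axis) of the 5 family genes in each of the 3 libraries, with the mean and SD beside the points. Ikzf2 lies between 268 and 441 TPM, Ikzf1, Ikzf3 and Ikzf4 lie between 75.2 and 119 TPM, and Ikzf5 stays at or below 20.8 TPM.

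The expected counts behind these levels were large for the 4 higher genes. Ikzf2 had 13952, 12664 and 6372 expected counts. Ikzf1 had 4025, 3579 and 2578 expected counts, Ikzf4 had 3055, 2656 and 1496, and Ikzf3 had 1754, 2174 and 1595. Ikzf5 had the fewest, at 570.2, 496.6 and 321.9, so its transcripts were resolved with the least precision.

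Set among 30 other T cell transcription factors, Ikzf2 was exceeded by 1, Ets1 (715 ± 127 TPM), in every library. By mean TPM, 6 of the 30 factors lay above Ikzf1, 7 above Ikzf3, 8 above Ikzf4 and 20 above Ikzf5. Set by their coding transcripts alone against the same factors' gene TPM, 6 factors lay above Ikzf2, 6 above Ikzf1 and 11 each above Ikzf3 and Ikzf4. Stat5a, nearest the list's median, was at 31.2 ± 2.86 TPM. Id3, an inhibitor of E proteins, was the only factor of the list that also varied between libraries under the trended dispersion described below (192 ± 104 TPM).

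Most of the Ikzf2 level did not sit in transcripts that encode Helios. The retained-intron transcript Ikzf2-205 (1905 bases) was at 200, 255 and 127 TPM, which was 55.8%, 57.8% and 47.4% of the gene. The coding transcript Ikzf2-201 (9278 bases) was at 127, 129 and 95.8 TPM, or 33.5 ± 3.64% of the gene (SD, n = 3). A second retained-intron transcript, Ikzf2-203 (2170 bases), was at 21.5, 42.1 and 31.2 TPM, or 9.06 ± 2.86%. In each library Ikzf2-205 exceeded Ikzf2-201, with replicate 3 lowest for Ikzf2-205 and Ikzf2-201 and replicate 1 lowest for Ikzf2-203.

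Summed by annotated class, retained-intron transcripts gave 61.8%, 67.3% and 59.1% of Ikzf2 TPM, a mean of 62.7 ± 4.2% (SD, n = 3). The 7 coding transcripts gave 137, 144 and 109.7 TPM, or 37.3 ± 4.2% of the gene. The second transcript table, made by another quantification, put the coding share at 37.4 ± 4.15% and Ikzf2-205 at 50.9 ± 7.11%. Both tables therefore placed the larger part of Ikzf2 TPM outside coding transcripts in every library.

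The picture by counts is the reverse, because TPM divides by length. The retained-intron transcripts held 24.9%, 30.5% and 24.2% of the gene's expected counts, a mean of 26.5 ± 3.47% (SD, n = 3), and Ikzf2-201 held 72.2 ± 3.48%. A long transcript collects more fragments per molecule than a short one, so the count share and the TPM share of the same transcripts differ. The deposited credible intervals, which belong to the posterior mean and whose level the sources used here do not state, separated both transcripts. For Ikzf2-205 the posterior means were 167, 206 and 97.8 TPM, with intervals of 159 to 174.5 in replicate 1 and 88.6 to 107.5 in replicate 3. For Ikzf2-201 they were 105.8, 104.5 and 73.7 TPM, with intervals of 103.8 to 108 and 71.6 to 75.9 in the same libraries.

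Both retained-intron transcripts of Ikzf2 contain the 105-base second coding exon of Ikzf2-201 and then run on for 1651 (Ikzf2-205) or 1652 bases (Ikzf2-203) into the next intron. That intron, chr1:69578048-69683209, is 105162 bases long and lies before the exon with the first finger, so neither transcript contains a finger exon. Further into the same intron and on the same strand, the annotated sense-intronic gene Gm28112 (chr1:69660187-69662061) was at 39.4, 57.7 and 33.6 TPM. A second such gene, Gm29112, was at 4.36, 6.98 and 3.66 TPM. Both were highest in replicate 2 and lowest in replicate 3. Ikzf2-205 had the same order, but so did the coding transcript Ikzf2-201 and the whole gene.

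**Figure D2:**
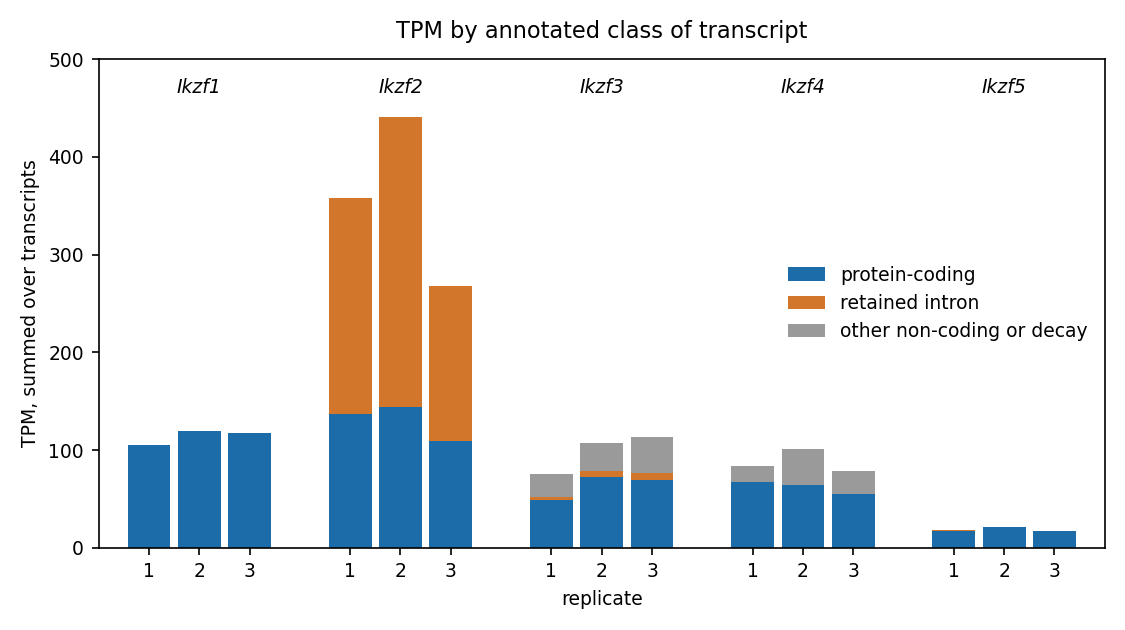
TPM of the 5 genes in each library, stacked by the annotated class of their transcripts. In Ikzf2 the retained-intron part reaches 221.5, 297 and 158 TPM and exceeds the coding part in every library. All annotated Ikzf1 transcripts are coding.

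Among complete coding transcripts of Ikzf2, the form with the long 3′ UTR of 7557 bases prevailed. Ikzf2-201 carried 92.8%, 89.5% and 87.3% of the gene's coding TPM. The other 5 complete coding transcripts, with annotated 3′ UTRs of 3 to 734 bases, summed to 9.91, 15.1 and 13.9 TPM. Of these, Ikzf2-207, which encodes 532 residues and 6 fingers and has a 3′ UTR of 734 bases, stayed between 0.3 and 0.47 TPM. Ikzf2-202, with 5 fingers and a 3′ UTR of 189 bases, was at 5.35, 6.2 and 1.45 TPM. Forms with 3 to 5 fingers summed to 9.44, 14.6 and 13.6 TPM, beside 137, 144 and 109.7 TPM for all coding transcripts. That was 3.68 ± 1.26% of the whole gene's TPM, retained-intron transcripts included (SD, n = 3).

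The order of Ikzf2 and Ikzf1 depended on what was counted. By gene TPM, Ikzf2 exceeded Ikzf1 by 3.42-, 3.70- and 2.28-fold in replicates 1, 2 and 3, and by 2.92-, 3.02- and 1.83-fold in the second table. Counting coding transcripts alone, an alternative chosen after the data were seen, the ratios were 1.31, 1.21 and 0.933. On that scale Ikzf2 (130.2 ± 18.1 TPM) and Ikzf1 (113.9 ± 8.01 TPM) overlapped, and replicate 3 had the reverse order. No non-coding Ikzf1 transcript is annotated, so counting coding transcripts alone took TPM from Ikzf2 only.

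The older gene table on release M4 gave a similar picture. Its whole-number counts were 2807, 2701 and 1542 for Ikzf2 and 2576, 2338 and 1714 for Ikzf1. For Ikzf2 these were 0.214 of the main expected counts, against 0.651 for Ikzf1, 0.638 for Ikzf3, 0.969 for Ikzf4 and 0.355 for Ikzf5. Across matched protein-coding genes with a mean main count of at least 100, this ratio rose with the coding share of exon bases. Its median was 0.775 in the 1998 genes with the lowest share and 1.63 in the 1997 with the highest, so the counts were divided by coding bases. It is inferred from this pattern, and stated in no header, that these counts cover coding sequence alone. Their totals, 11055692, 10026961 and 6957873 in replicates 1, 2 and 3, were nevertheless above the main totals of expected counts. The unit they count is not stated, and the inference behind the scale per coding base was not tested.

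Per coding base, Ikzf2 over Ikzf1 was 1.10, 1.17 and 0.909, and the ranges of the 2 genes overlapped again. Ikzf2 stayed above Ikzf4 on each of the 4 scales. The ratio was 3.41 to 4.37 on gene TPM of the main table and 3.13 to 4.09 in the second table. It was 1.99 to 2.24 on coding transcripts and 1.30 to 1.39 per coding base. Coding bases were counted over all annotated coding sequences of a gene, 1596 for Ikzf2 and 2136 for Ikzf4. Those of Ikzf4 include Ikzf4-203 (686 residues), at 2.36, 4.59 and 0.69 TPM. A shorter denominator for Ikzf4 would lower the ratio of Ikzf2 to Ikzf4 per coding base. Ikzf5 was the lowest member on all 4 scales.

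**Figure D3:**
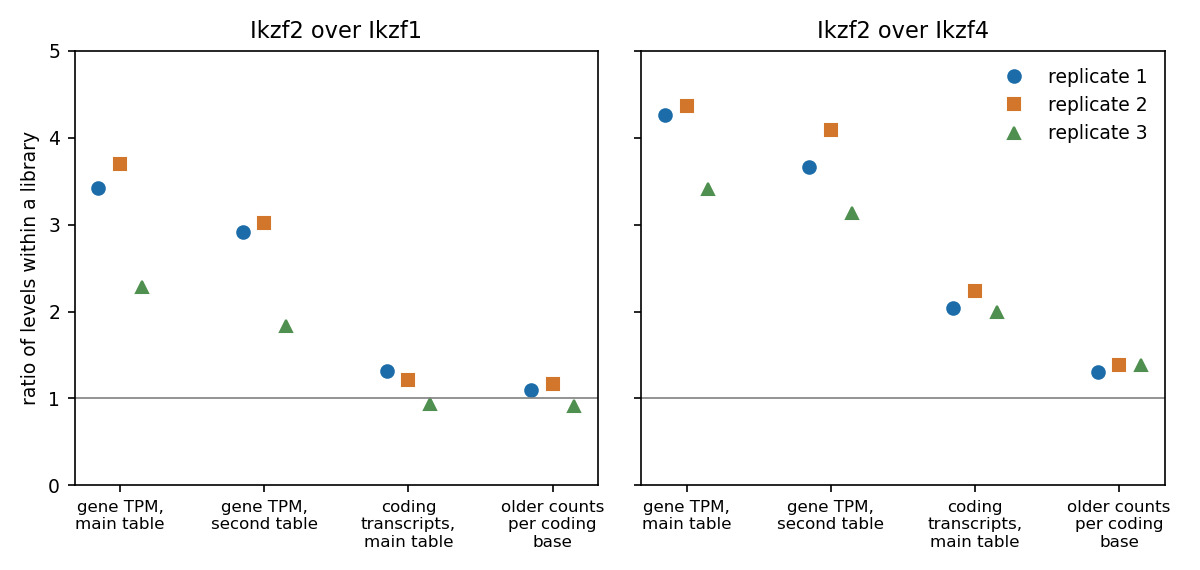
Ratio of Ikzf2 to Ikzf1 (left) and of Ikzf2 to Ikzf4 (right) within each library, on 4 scales, with a line at a ratio of 1. Ikzf2 over Ikzf1 lies between 1.83 and 3.70 on gene TPM of the main and second tables. It lies between 0.909 and 1.31 on the coding scales. Ikzf2 over Ikzf4 stays above 1.

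All 6 annotated Ikzf1 transcripts are coding, so its coding share was set by the annotation. Its leading form was full-length. Ikzf1-204 (5163 bases, 515 residues, 6 fingers, 3′ UTR of 3348 bases) was at 87.4, 93.1 and 88.4 TPM, or 78.9 ± 4.25% of the gene (SD, n = 3). Ikzf1-202 (911 bases), the form whose junction is shown above, was at 10.6, 13 and 15.3 TPM, or 11.3 ± 1.51%. It skips the 261-base exon with the first finger, ends before the last coding exon and encodes 198 residues with 3 fingers. Replicate 3 was its highest library and replicate 1 its lowest, and it rested on 61.9 to 70.7 expected counts.

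The 2 quantifications divided Ikzf1 differently. The second table gave Ikzf1-204 37.0 ± 8.28% of the gene and Ikzf1-203 29.4 ± 6.33% (SD, n = 3). In the main table Ikzf1-203, which encodes 535 residues with 6 fingers and has a 3′ UTR of 2534 bases, had 1.39 ± 1.31%. Since both encode all 6 fingers, the six-finger share differed less, at 80.3 ± 3.26% in the main table and 66.3 ± 3.41% in the second. Forms without a finger, Ikzf1-205 and Ikzf1-206, whose coding sequences are annotated as incomplete, took 5.18 ± 0.953% and 20 ± 1.34% in the 2 tables. The levels of Ikzf1-203 and Ikzf1-204 could not be told apart across the tables.

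In Ikzf3, the 1 coding transcript led. Ikzf3-201 (3658 bases, 507 residues, 6 fingers) was at 48.5, 72.4 and 69.5 TPM, or 64.4 ± 2.92% of the gene (SD, n = 3), with replicate 1 low as for the whole gene. The short processed transcript Ikzf3-204 (670 bases) was at 19.9, 21.9 and 26.2 TPM, or 23.3 ± 3.10%, but rested on 71.7 to 87.5 expected counts, which were 4.39 ± 0.660% of the gene's. A further processed transcript, Ikzf3-202 (863 bases), took 6.86 ± 2.49% of TPM. The second table raised Ikzf3-204 to 39.5 ± 1.13% and lowered Ikzf3-201 to 48.3 ± 2.96%.

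Ikzf3 also has a read-through form, at a far lower level than that of Ikzf2. Ikzf3-203 (4607 bases) contains the 102-base coding exon 3 and runs on for 4163 bases into an intron of 26261 bases, again before the first finger. It was at 3.39, 6.24 and 6.92 TPM, or 5.47 ± 0.847% of Ikzf3 TPM and 9.15 ± 1.41% of its counts (SD, n = 3). Replicate 1 was lowest, as for Ikzf3-201.

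**Figure D4:**
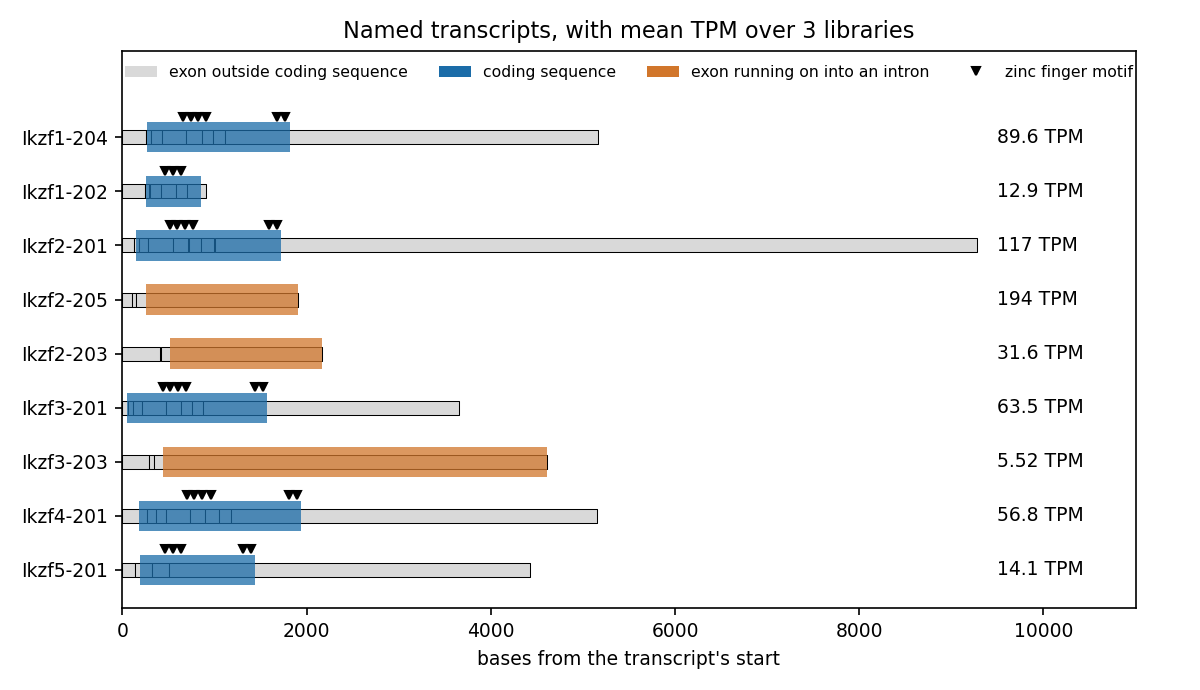
Named transcripts drawn to scale in bases from the transcript's start, with coding sequence, exons that run on into an intron and finger motifs marked, and the mean TPM over 3 libraries at the right. The read-through forms Ikzf2-205 (194 TPM), Ikzf2-203 (31.6 TPM) and Ikzf3-203 (5.52 TPM) carry no finger.

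In Ikzf4, the full-length form led with several short or decay-annotated transcripts beside it. Ikzf4-201 (5150 bases, 586 residues, 6 fingers, 3′ UTR of 3208 bases) was at 63.1, 58.8 and 48.4 TPM, or 65.0 ± 8.87% of the gene (SD, n = 3). The transcript Ikzf4-208, annotated for nonsense-mediated decay, the pathway that degrades messages with an early stop codon, took 5.84%, 15.8% and 5.01%, with replicate 2 above the others. A second decay-annotated transcript, Ikzf4-206 (490 bases), took 7.09 ± 4.17%, and the processed transcript Ikzf4-205 (363 bases) took 9.97 ± 1.5%. Ikzf4-206 and Ikzf4-205 rested on 7.19 to 16.5 expected counts per library, so their shares have little depth behind them.

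The coding transcripts together held 79.7%, 63.8% and 70.1% of Ikzf4 TPM, and replicate 2 was lowest. In the main table, the rise of the Ikzf4 gene level in replicate 2, to 101 TPM, was therefore not seen in its coding transcripts. They were at 67.0, 64.5 and 55.1 TPM. Other scales differed, since older counts per coding base were highest in replicate 2 (127.3, 133.4 and 106.2). So was Ikzf4-201 in the second table (27.7, 28.3 and 25.7 TPM). In the second table the coding share was 57.0 ± 5.11% (SD, n = 3). The short 3′ UTR form Ikzf4-204 (337 UTR bases, 6 fingers) was at 1.57, 1.07 and 5.97 TPM, highest in replicate 3.

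Ikzf5 was carried by 1 long transcript. Ikzf5-201 (4430 bases, 419 residues, 5 fingers, 3′ UTR of 2988 bases) was at 14.1, 15.2 and 13 TPM, or 75.4 ± 2.21% of the gene and 94.3 ± 1.30% of its counts (SD, n = 3). Its share was 56.6 ± 9.36% in the second table. The coding transcripts Ikzf5-205 and Ikzf5-206, both with incomplete coding sequence and 1 finger, took 7.07 ± 7.25% and 5.44 ± 8.60%, and each had no count in 1 library. The short 3′ UTR form Ikzf5-202 (1272 UTR bases, 3 fingers) was at 0, 0.48 and 1.34 TPM. The retained-intron form Ikzf5-207 was at 1.32, 0 and 0.14 TPM.

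The exons of Ikzf5 share 4652 bases with Pstk on the opposite strand, which had 248, 291 and 165 expected counts. Those of Ikzf2 share 144 bases with the antisense gene Gm29114, which had 28.1 to 39.1. The sources used here do not state whether the counting used strand, so reads in these shared bases cannot be assigned with certainty.

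Next, the spread of each gene between libraries was compared with sampling noise, on CPM (counts scaled to a common total) with edgeR's TMM library sizes. Ikzf1 was at 376.6, 372.4 and 372.9 normalised CPM, a highest-to-lowest ratio of 1.01. Of the 8485 genes whose mean count reached 100, 0.118% had a smaller ratio, and their median was 1.34. Ikzf5 was also steady, at 53.3, 51.7 and 46.6, a ratio of 1.15. By the chi-square test with Benjamini-Hochberg adjustment neither differed beyond sampling noise (adjusted p of 0.888 for Ikzf1 and 0.185 for Ikzf5). With DESeq2 size factors the chi-square adjusted p of Ikzf1 was 0.140, and with plain totals it was 0.115. On the counts of the second table the same chi-square test did call Ikzf1 (adjusted p = 0.0136).

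The other 3 members did. Ikzf2 was at 1305, 1318 and 921.6 normalised CPM, with replicate 3 below the others (chi-square adjusted p = 3.99e-139). Ikzf4 was at 285.8, 276.4 and 216.4, also lowest in replicate 3 (chi-square adjusted p = 5.60e-18). Ikzf3 was at 164, 226.2 and 230.7, lowest in replicate 1 (chi-square adjusted p = 4.40e-28). Without replicate 3 neither Ikzf2 (chi-square adjusted p = 0.979) nor Ikzf4 (0.220) passed, and without replicate 1 Ikzf3 did not (0.643).

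These 3 of 5 calls stand beside 8496 of all 12997 genes tested, or 65.4%, so the family's share was near that of all genes. When the trended dispersion of edgeR, estimated from the same libraries, was added to the variance, 156 genes (1.2%) and 0 of the 5 members passed. No member reached an unadjusted p under 0.05 in that model, against 688 genes, and the unadjusted p ranged from 0.399 for Ikzf2 to 0.999 for Ikzf1. Replicate 3, where Ikzf2 and Ikzf4 were low, also had the lowest sum of T cell markers and the highest levels of Igkc, Jchain and Mzb1. Against that sum, Foxp3 (49.8 TPM) and Ctla4 (612 TPM) were highest in replicate 3. Ctla4 varied even under the trended dispersion. The sum of the other 8 B cell markers, most of it from Ighm, was lowest there, as were 3 of the 8. Replicate 1, where Ikzf3 was low, had the highest sum of erythroid markers, at 793.5 TPM, and 5 of the 6 varied even under the trended dispersion. The part of these markers in the differences of Ikzf2, Ikzf4 and Ikzf3 was not tested.

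**Figure D5:**
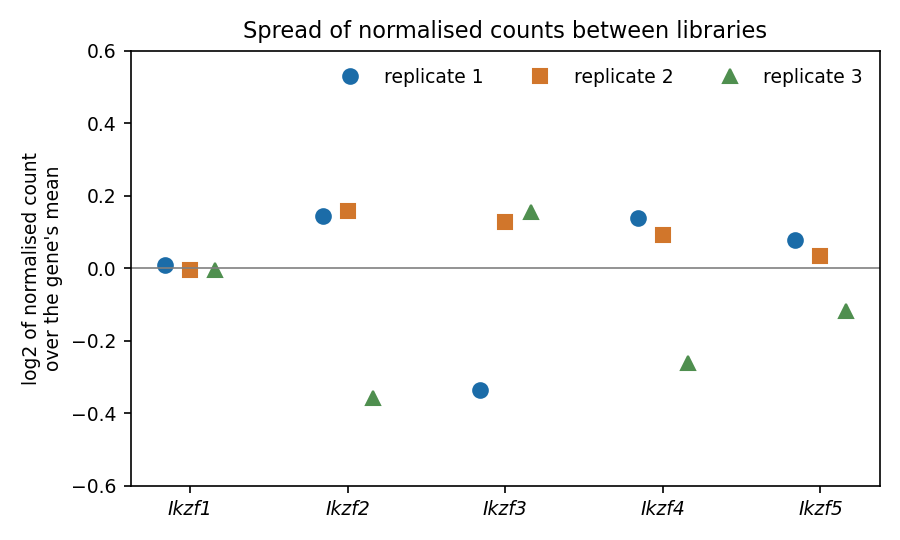
Normalised count of each gene in each library, as log2 of its ratio to the gene's mean over the 3 libraries. The Ikzf1 points lie together, replicate 3 is lowest for Ikzf2 (921.6 normalised CPM) and Ikzf4 (216.4), and replicate 1 is lowest for Ikzf3 (164).

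For each member, the genes with the most similar values were found by Euclidean distance of log2(TPM + 1) over the 3 libraries, a measure of level as well as pattern. Among 22023 protein-coding genes, those nearest Ikzf1 were Dnajc19 and Pias1, and those nearest Ikzf2 were Ctsb (393, 433 and 288 TPM) and Cd37 (388, 409 and 255 TPM). Those nearest Ikzf3 were Sec24c and Cops8, those nearest Ikzf4 were Psen2 and Ppp1r16b, and those nearest Ikzf5 were Mcu and Man1b1. Of the 30 transcription factors, Tox was nearest Ikzf1, Stat3 nearest Ikzf3, Gata3 nearest Ikzf4 and Irf4 nearest Ikzf5. Id2, the nearest to Ikzf2, lay 1.23 log2 units away, farther than the 0.297 to 0.53 units of the other pairs. These distances used gene TPM, of which 62.7 ± 4.2% in Ikzf2 was retained-intron TPM. Its coding transcripts alone were at 137, 144 and 109.7 TPM, and distances on that scale were not computed.

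Partners through which Ikaros proteins act were present. All 13 genes of the NuRD complex, a nucleosome remodeller and histone deacetylase that Ikaros recruits, were detected in every library. Their median was 46.6 TPM, against 14.5 TPM over all 12997 genes tested. Rbbp4, a histone-binding subunit, was highest at 244 ± 1.5 TPM, Chd3, a helicase, lay at the median with 46.6 ± 4.37 TPM, and Hdac2, a deacetylase, was lowest at 7.82 ± 2.34 TPM (SD, n = 3). By the chi-square test, 11 of the 13 varied between libraries, beside 65.4% of all genes tested.

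All 8 other corepressors and remodellers listed were detected, with a median of 29.2 TPM, and 6 of the 8 varied by the chi-square test (65.4% of all genes). Sin3b, a corepressor scaffold, was highest at 101 ± 9.71 TPM and Ctbp2, a corepressor, lowest at 3.05 ± 1.66 TPM (SD, n = 3). Sin3a, a scaffold of the same kind nearest the list's median, was at 31.3 ± 6.98 TPM.

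The cereblon ubiquitin ligase, through which thalidomide-type drugs degrade Ikaros and Aiolos in human cells, had all 5 listed genes detected, with a median of 95.3 TPM. Rbx1, its RING subunit, was at 230.2 ± 37.4 TPM, the adaptor Ddb1 at 95.3 ± 33.2 TPM and the scaffold Cul4a at 12.2 ± 0.804 TPM (SD, n = 3). Of these 5 genes, 4 varied by the chi-square test, beside 65.4% of all genes.

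Kinases and phosphatases known to act on Ikaros had 6 of 8 genes at 1 TPM or more in every library, a median of 55.4 TPM, and 7 of 8 varied by the chi-square test (65.4% of all genes). Ppp1ca, a catalytic subunit of protein phosphatase PP1, was highest at 823.5 ± 84.8 TPM, and Ppp1cc, another, was at 42.2 ± 8.97 TPM (SD, n = 3). The kinase Syk was lowest at 1.51 ± 1.03 TPM. Of the 30 T cell transcription factors, 28 varied by the chi-square test, beside 65.4% of all genes, and 29 were detected in every library, with a median of 32.3 TPM. Under the trended dispersion, Id3 was the 1 gene still called in these 5 lists, where 2 of their 64 genes, Id3 and Satb1, had an unadjusted p under 0.05.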

How the data were processed

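RNA-seq was analysed in 3 libraries of 1 group. Per the file headers, the authors' main tables, 1 for genes and 1 for transcripts, hold expected counts, TPM, the percent of each gene per transcript, posterior means and other estimates, namely credible interval bounds. The columns are named as RSEM names them, but the sources used here do not state the program. A second deposited transcript table holds estimated counts and TPM under the column names kallisto writes. Summed over genes, its counts were 15376856, 13080676 and 9205768 in replicates 1, 2 and 3, above the main totals. An older deposited gene table holds whole-number counts on release M4. The other tables use GENCODE M21 and mm10, per the labels and file headers. Of 22457 M4 genes, 22195 (98.8%) matched by identifier.

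Levels are means and SDs of deposited TPM. Expected counts were rounded, genes averaging under 10 counts were left out, and the rest were compared between libraries by chi-square (2 degrees of freedom) against TMM sizes (edgeR 4.0.16, R 4.3.3), with Benjamini-Hochberg adjustment and a threshold of 0.05. DESeq2 1.42.0 gave alternative size factors. The common dispersion was 0.0696. The test was tested on simulated data. Reads are not independent molecules, so the test covers counting error only. Coding sequences were translated from the annotation, searched for fingers and aligned in Biopython 1.88 with gap costs of 11 and 1.

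All members, transcripts with a mean share of at least 5%, the leading transcript of each non-coding class and some short 3′ UTR forms, chosen after their values were seen, were named, with the highest, median and lowest gene of each partner and factor list, any partner or factor gene that varied under the trended dispersion, the nearest genes (pseudocount 1) and the markers that define a cell type. Satb1, the markers Ighm, Jchain and Mzb1, and the sense-intronic and overlapping genes were added after their values were seen. Some listed genes are not reported here. Members and lists were chosen with earlier results of these data known. Alternatives were another quantification, denominators, size factors, filters, pseudocount 0.1 and leaving out each library.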

Additional observations from a re-analysis of the deposited data

How the results depend on the processing

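In TPM, the second table gave lower levels for every member (72.9 for Ikzf1, 186 for Ikzf2, 64.1 for Ikzf3, 50.9 for Ikzf4 and 12.2 for Ikzf5), as it did over protein-coding genes (median ratio 0.588). Older counts per coding base gave 156.8, 165.8, 122.3 and 14.1 for Ikzf1, Ikzf2, Ikzf4 and Ikzf5. Rescaling to protein-coding genes gave 140.9, 122.2, 108.6 and 23.1 for Ikzf1, Ikzf3, Ikzf4 and Ikzf5. The posterior mean gave 94.3 for Ikzf1 and 74.0 for Ikzf4. Coding transcripts only gave 130.2 for Ikzf2, 63.5 for Ikzf3 and 62.2 for Ikzf4. The second table also moved the shares of Ikzf1-204 (37.0%), Ikzf3-201 (48.3%), Ikzf4-201 (53.7%) and Ikzf5-201 (56.6%; 62.3% by posterior mean), and the coding shares of Ikzf3 (48.3%) and Ikzf4 (57.0%). The cause of these moves was not tested. Under the trended dispersion 0 members and 156 genes varied. With 1 library left out, 1 to 3 members and 4210 to 6925 genes did. The second quantification also called Ikzf1 (adjusted p = 0.0136 by the chi-square test). DESeq2 size factors, plain totals, no count filter and the older gene table left the same 3 members called, and the pseudocount of 0.1 left every nearest gene as it was. The level of Ikzf5 rests on few counts, and the shares of transcripts under 1000 bases rest on few reads. No paired analysis was possible because the 3 libraries form 1 group.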
